A study of Homo sapiens with 4 samples.

Results

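Tubulin isotypes are the products of separate alpha and beta tubulin genes, and 10 of these genes were followed here through RNA-Seq of HT-29 cells after silencing of APC. The 10 genes were taken by symbol (GENCODE v29) from the 19729 genes with a value in each library: 4 alpha tubulin genes (TUBA1A, TUBA1B, TUBA1C and TUBA4A) and 6 beta tubulin genes (TUBB, TUBB2A, TUBB2B, TUBB3, TUBB4B and TUBB6). HT-29 is an established human colorectal cancer cell line that carries a mutant APC gene, and the paper describes its APC protein as truncated. All cells, controls included, had been stably transduced with a lentivirus for a doxycycline (DOX)-inducible shRNA, were used at passage 3 to 5 after transduction, and received 500 ng/ml DOX for 72 h. The shRNA was directed against APC in 2 libraries (APC shRNA I and II) and was non-silencing in the other 2 (NonS I and II). The labels do not state whether the cells were clones or pools, and there were no cells without DOX. The 10 genes were selected on their values in these same 4 libraries, with this contrast known, so their differences between APC shRNA and NonS are a description and carry no test.

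Microtubules are hollow polymers of dimers of 1 alpha and 1 beta tubulin, and they carry chromosomes, vesicles and cilia. The genes of each family encode proteins that differ mostly at the acidic C-terminal tail, where motors, associated proteins and modifying enzymes act. TUBB3 and TUBB2B are best known from neurons, and TUBA1B, TUBB and TUBB4B are widely expressed. The full-length APC protein itself binds microtubules in addition to restraining Wnt/β-catenin signaling. Whether the truncated APC of HT-29 binds microtubules was not tested. Cells also set the amount of tubulin mRNA: when free tubulin is plentiful, the factor TTC5 recognises the first residues of the nascent tubulin chain on the ribosome and the mRNA is degraded.

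The coding starts are shown because they encode this recognised stretch, with the first 4 codons in capitals (positions 1 to 24 of the coding sequence, 5′ to 3′, GENCODE v29 transcripts on GRCh38).
TUBA1B: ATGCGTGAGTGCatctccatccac
TUBA4A: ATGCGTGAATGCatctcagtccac
TUBB: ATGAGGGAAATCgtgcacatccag
TUBB2A: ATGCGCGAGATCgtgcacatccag
TUBB2B: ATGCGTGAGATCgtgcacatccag
TUBB3: ATGAGGGAGATCgtgcacatccag
TUBA1A and TUBA1C had the same 24 bases as TUBA1B, and TUBB6 had the same as TUBB3. The first 4 codons encode MREC in every alpha gene and MREI in every beta gene, so within a family the capitals differ only by synonymous bases. Whether the start bears on the level of any gene was not tested. TTC5 itself had a value of 2 in each NonS library and of 3 in each APC shRNA library, below the level needed for a test.

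The other end of the coding sequence shows where the beta isotypes part. The last 60 bases of 5 beta genes are printed, stop codon included, with capitals for the bases that differ from TUBB, or that have no partner there, after alignment.
TUBB: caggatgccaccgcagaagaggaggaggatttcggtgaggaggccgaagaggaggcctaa
TUBB2A: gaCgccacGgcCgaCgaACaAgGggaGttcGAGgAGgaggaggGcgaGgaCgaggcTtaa
TUBB2B: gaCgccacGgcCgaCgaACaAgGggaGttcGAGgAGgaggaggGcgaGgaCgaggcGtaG
TUBB3: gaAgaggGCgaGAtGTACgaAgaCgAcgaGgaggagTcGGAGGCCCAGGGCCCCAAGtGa
TUBB4B: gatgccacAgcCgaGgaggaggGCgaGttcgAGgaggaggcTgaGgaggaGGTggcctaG
TUBB3 carried 34 capitals, against 14 in TUBB4B, 18 in TUBB2A, 19 in TUBB2B and 23 in TUBB6. Over the whole coding sequence the beta genes shared 81.3 to 98.1% of aligned bases with each other and 54.7 to 56.8% with the alpha genes. The closest pair was TUBB2A and TUBB2B, which differed at 25 of 1338 coding bases.

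The deposited value of a gene is a whole number whose scale the sources used here do not name. The values multiplied by transcript length in kb summed to 980841 to 984873 in the 4 libraries, as values already given per length and per library would, so levels are compared between genes as deposited. Values of genes varied less between replicates than read counts would (variance 0.474 of Poisson in NonS and 0.345 in APC shRNA), so the sequencing depth is unknown and no count test was run. Each group had 2 libraries, described as biological duplicates, for which the smallest two-sided exact permutation p is 0.333. Among 5376 tested genes the median difference was 0.03 on the log2(value + 1) scale, and the SD over genes of replicate II minus replicate I was 0.33 in NonS and 0.34 in APC shRNA. The targeted gene had values of 3 and 0 in NonS against 0 and 0 in APC shRNA, too low to check the labels, whereas AXIN2, a Wnt feedback gene, was at 16 and 22 in NonS against 124 and 178 in APC shRNA. The check list of 7 genes held APC and 6 genes, AXIN2 among them, that the study had already reported as higher in these libraries. All 6 passed limma's moderated test at an adjusted p under 0.05, each higher in APC shRNA. Their passing is therefore no independent check.

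In NonS cells, 6 of the 10 genes held nearly all of the summed tubulin value as deposited. TUBA1B had the highest value, 687 in NonS I and 689 in NonS II, and ranked 69th of the 12347 genes above 0 in NonS by its mean. TUBB4B followed at 450 and 510, and TUBB at 465 and 438. TUBA1C stood at 233 and 246, TUBA1A at 121 and 126 and TUBA4A at 39 and 37. TUBB4B and TUBB overlapped between libraries and cannot be ordered, while the steps from them to TUBA1C, TUBA1A and TUBA4A were larger than the gap between replicates. TUBB2A, TUBB2B, TUBB6 and TUBB3 were each at 17 or less. The 10 genes together held 0.509% and 0.507% of the sum of all values in the 2 NonS libraries.

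**Figure D1:**
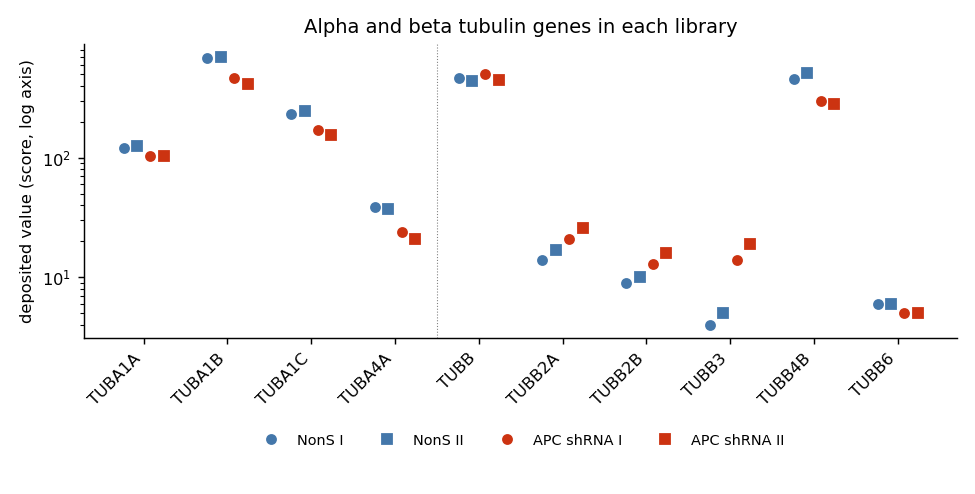
Deposited value (score, log axis) of the 4 alpha and 6 beta tubulin genes, with 1 point per library, circles for replicate I and squares for replicate II, NonS in blue and APC shRNA in red. TUBA1B (687 and 689 against 462 and 411) and TUBB4B (450 and 510 against 295 and 278) lie lower in APC shRNA, TUBB overlaps, and TUBB3 (4 and 5 against 14 and 19) lies higher.

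After APC silencing, all 4 alpha tubulin genes had lower values in both libraries than in either NonS library. TUBA1B, the main alpha isotype of dividing cells, was at 462 and 411 in APC shRNA, with a mean of 436.5 ± 36.1 (SD, n = 2) against 688 ± 1.41 in NonS (SD, n = 2), a ratio of 0.634. TUBA1C, its close relative and neighbour on chromosome 12, was at 171 and 154, with a mean of 162.5 ± 12 against 239.5 ± 9.19 and a ratio of 0.679. TUBA1A, the alpha isotype most abundant in developing brain, was at 104 in both libraries, with a ratio of 0.842. In each of these genes the difference of means exceeded the gap between replicates.

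TUBA4A, an alpha isotype whose coding sequence lacks a codon for a C-terminal tyrosine, had a ratio as low as that of TUBB4B. It was at 39 and 37 in NonS against 24 and 21 in APC shRNA. Its means were 38 ± 1.41 and 22.5 ± 2.12 (SD, n = 2 each), a ratio of 0.592 and a log2 ratio of means of -0.76. Rounding alone allows -0.81 to -0.71, a range that includes TUBB4B (-0.74), so the lowest of the 10 genes cannot be named. The alpha genes ranged from 0.592 to 0.842 of their NonS level, with TUBA1A the nearest to 1.

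The beta tubulin genes went in different directions. TUBB4B, a widely expressed beta isotype also found in cilia, was at 295 and 278 in APC shRNA against 450 and 510 in NonS. Its means were 286.5 ± 12 and 480 ± 42.4 (SD, n = 2 each), a ratio of 0.597. TUBB, the other abundant beta isotype, was at 497 and 445 in APC shRNA against 465 and 438 in NonS, so its groups overlapped, with a ratio of 1.04. The pair that could not be ordered in NonS was therefore apart after silencing, with TUBB above TUBB4B in both APC shRNA libraries. The value of TUBB over that of TUBB4B was 1.03 and 0.859 in NonS and 1.69 and 1.60 in APC shRNA.

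TUBB3, the class III beta isotype used as a neuronal marker and also found in carcinomas, had the highest ratio. It was at 4 in NonS I, 5 in NonS II, 14 in APC shRNA I and 19 in APC shRNA II. The means were 4.5 ± 0.707 and 16.5 ± 3.54 (SD, n = 2 each), a ratio of 3.67. Because the values are whole numbers, rounding alone allows a log2 ratio of means from 1.68 to 2.09 around the 1.87 observed. The distance between the groups exceeded the replicate gap within either.

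TUBB2A and TUBB2B, which lie near each other on chromosome 6 and differ little in sequence, were higher by similar ratios. TUBB2A was at 14 and 17 in NonS against 21 and 26 in APC shRNA, with a ratio of 1.52. TUBB2B was at 9 and 10 in NonS against 13 and 16 in APC shRNA, with a ratio of 1.53. In both genes the groups did not overlap, but the lowest APC shRNA value was within 4 units of the highest NonS value. TUBB6, a beta isotype of low level here, had a value of 6 in each NonS library and of 5 in each APC shRNA library, and rounding allows a log2 ratio of means from -0.53 to 0.

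Of the 10 genes, 3 had both APC shRNA values above both NonS values, 6 had both below and 1 overlapped. Among all tested genes, 33.0% had both values above and 27.5% had both below. By limma (adjusted p under 0.05, Benjamini-Hochberg), 9 of the 10 genes could be tested and TUBB3 was called higher and TUBA1B, TUBA4A and TUBB4B lower, where 4.33% of all tested genes were called higher and 3.7% lower. These 4 calls use the contrast by which the genes were chosen and are given for the record only. With the replicate number as a block TUBA1B and TUBB4B were not called and TUBB2A and TUBB2B were called higher, and without a filter TUBB6 alone was called, lower. No tubulin gene, nor any other gene, had an adjusted p under 0.05 when any 1 of the 4 libraries was left out. The median difference on the log2(value + 1) scale was -0.61 over the alpha genes and 0.31 over the beta genes, beside 0.03 over all genes tested.

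**Figure D2:**
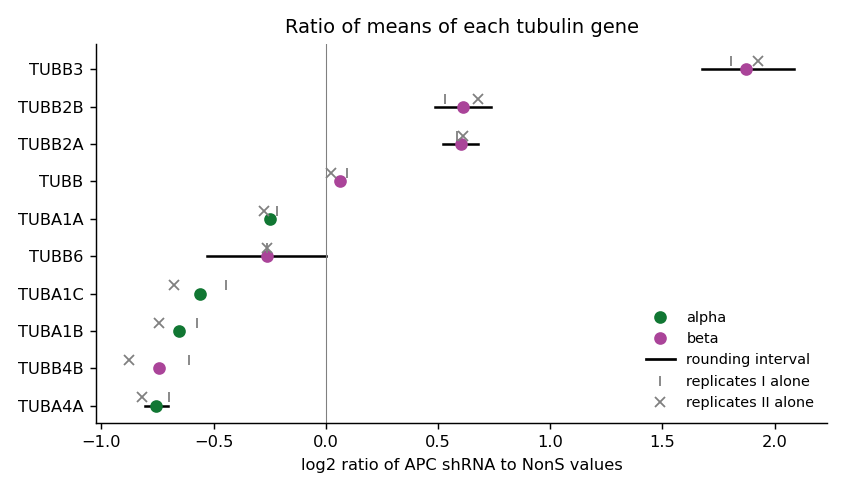
Log2 ratio of the APC shRNA to the NonS mean for each of the 10 genes (points, alpha green and beta purple), with the interval that rounding of the deposited values allows (black line) and the ratio of replicates I (bar) and II (cross) alone in grey. The ratios run from -0.76 in TUBA4A and -0.74 in TUBB4B to 1.87 in TUBB3, and TUBB (0.06) lies nearest to 0.

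Summed over genes, alpha tubulin was lower by more than beta tubulin. The alpha sum was 1080 and 1098 in NonS and 761 and 690 in APC shRNA, lower by 33.4% in the mean. The beta sum was 948 and 986 in NonS and 845 and 789 in APC shRNA, lower by 15.5%. All 10 genes summed to 2028 and 2084 in NonS and to 1606 and 1479 in APC shRNA, lower by 25.0%. Both families were below NonS in each APC shRNA library. As deposited, the sum of alpha over that of beta was 1.14 and 1.11 in NonS and 0.901 and 0.875 in APC shRNA. Its place above or below 1 rests on the values being per length already, as taken here. If they are, dividing them by transcript length corrects for length a second time. With that division, by the longest transcript of each gene, alpha was below beta in NonS already (371.3 and 378.0 against 399.3 and 422.4). Alpha was then lower by 32.2% and beta by 18.3% in APC shRNA. The alpha to beta ratio also rests on how reads with several placements were counted, which is not given in the sources used here. The share of the 10 genes in the sum of all values was 0.388% and 0.358% in APC shRNA. In bulk RNA, fewer cells of a kind and less message per cell cannot be told apart.

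Within the alpha family the makeup shifted little. TUBA1B held 63.2% of the alpha sum in NonS and 60.1% in APC shRNA, a difference of -3.04 percentage points. TUBA1A, the alpha gene with the smallest decrease, held 11.3% and 14.4%. TUBA1C held 21.6% and 22.4% in the NonS libraries and 22.5% and 22.3% in the APC shRNA libraries, and TUBA4A 3.49% and 3.10% in the means. TUBA1B thus remained the main alpha isotype in every library.

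Within the beta family the makeup shifted more. TUBB held 49.1% and 44.4% of the beta sum in the NonS libraries and 58.8% and 56.4% in the APC shRNA libraries, 10.9 percentage points more in the mean. TUBB4B held 47.5% and 51.7% in NonS and 34.9% and 35.2% in APC shRNA, a difference of -14.5 percentage points. Both differences exceeded the replicate gap. TUBB2A, TUBB2B and TUBB3 summed to 27 and 32 in NonS and to 48 and 61 in APC shRNA, which was 2.85% and 3.25% of the beta sum against 5.68% and 7.73%. TUBB3 alone went from 0.465% to 2.03% of the beta sum as deposited. This share is uncertain, since most of the TUBB3 transcript is shared with an overlapping gene, as described below.

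How far these genes can be separated by 50-base reads was measured on their transcripts, by counting 50-base stretches that also occur at another locus. Stretches shared with a gene only because it overlaps the same locus are left out of this count and described after it. TUBB2A had such a copy for 65.5% of its stretches, TUBA1B for 62.7% and TUBB2B for 52.2%. TUBA1A followed with 41.1%, TUBA1C with 25.1% and TUBB with 18.2%, whose copies lay mostly in the pseudogene TUBBP1. TUBB4B (9.89%), TUBB3 (8.90%), TUBA4A (5.25%) and TUBB6 (0.993%) had the fewest copies elsewhere. How reads with several placements were counted is not given in the sources used here, so the split within TUBA1A, TUBA1B and TUBA1C and within TUBB2A and TUBB2B is uncertain. When each value was divided by the share of its stretches without a copy, an alternative added after seeing the data, TUBB went from 47.6% to 56.7% of the beta sum and TUBB4B from 45.9% to 31.3%. The same step raised the level of the low genes: TUBB2A went from 3.86% to 6.73%, and TUBB2A, TUBB2B and TUBB3 together from 5.998% to 11.5%, against 1.60% to 2.89% for TUBB2A as deposited.

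**Figure D3:**
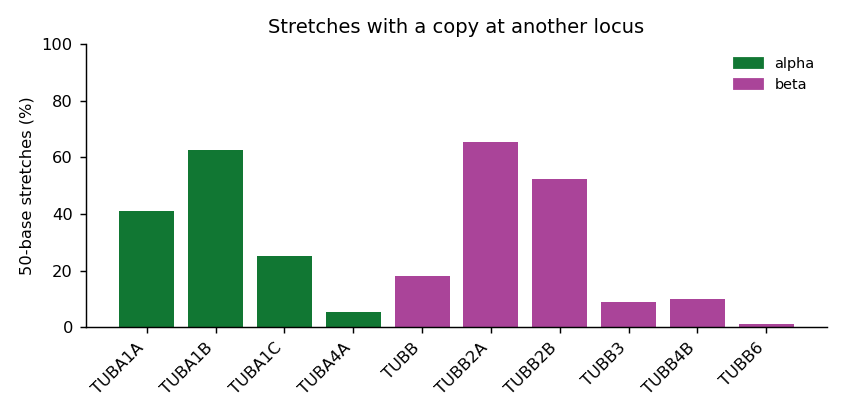
Percent of the 50-base stretches of each transcript that also occur at another locus, without those shared only with a gene overlapping the same locus, with alpha genes in green and beta genes in purple. TUBB2A (65.5%), TUBA1B (62.7%) and TUBB2B (52.2%) are highest and TUBB6 (0.993%) is lowest.

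TUBB3 has a limit of another kind. The gene lies at chr16:89921392-89938761 (plus strand, GRCh38, GENCODE v29), and 1584 bases of its exons, 35.8% of them, are also exons of the readthrough gene AC092143.1 on the same strand. Of the 50-base stretches of the main TUBB3 transcript, 89.4% are part of AC092143.1 too. The readthrough gene was at 5 and 7 in NonS against 19 and 24 in APC shRNA. Both entries were thus higher after silencing by a like amount, and their reads cannot be told apart over the shared exons. If such reads were left out of both genes, the TUBB3 value would rest on the remainder of its transcript and understate its level. How they were counted is not given in the sources used here, so the level and share of TUBB3 are uncertain. The division by stretches without a copy did not account for this overlap.

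Other members overlap genes on the opposite strand. The library kit was stranded, but the strand setting of the counting is not given in the sources used here. TUBA1B (chr12:49127782-49131397, minus strand) shares 1309 exonic bases with the antisense gene AC011603.2. TUBA1A (chr12:49184796-49189324, minus strand) and TUBA1C (chr12:49188736-49274603, plus strand) share 490 exonic bases with each other. TUBB4B (chr9:137241213-137243707, plus strand) shares 124 exonic bases with FAM166A, which was at 30 and 24 in NonS against 17 and 13 in APC shRNA. TUBB6 shares 837 exonic bases with AFG3L2, at 36 and 36 in NonS against 30 and 32 in APC shRNA. TUBA4A (chr2:219249711-219278170, minus strand) shares 627 with STK16, at 8 and 10 in NonS against 10 and 12 in APC shRNA, groups that meet at 10. Whether reads from the opposite strand entered any of these values was not tested.

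The promoters were read for the motif of TCF/LEF factors, which carry Wnt/β-catenin output, and for the CCAAT box. Windows of 300 bases (250 before to 50 after the start, RefSeq, GRCh38.p14) were at hand for all 10 genes, 15 windows in all, and both strands were searched. CTTTGATC was in 0 of the 15 windows, against 0.652% of 35116 windows of all genes, and its shorter form CTTTGA was in 0, against 12.9%. CCAAT was in 9 of the 15 windows, from 7 of the 10 genes, against 34.6% of all windows. A pair of overlapping TUBA1C windows held the same match, so the 12 matches in these windows are 11 positions. The window of TUBB4B, with the most CCAAT matches, and a window of TUBB3, with the highest ratio, are shown with the CCAAT letters, on either strand, in capitals. TUBB3 also has a window at chr16:89921675-89921974, which held 0 matches and is not printed.
TUBB4B, chr9:137241037-137241336, plus strand: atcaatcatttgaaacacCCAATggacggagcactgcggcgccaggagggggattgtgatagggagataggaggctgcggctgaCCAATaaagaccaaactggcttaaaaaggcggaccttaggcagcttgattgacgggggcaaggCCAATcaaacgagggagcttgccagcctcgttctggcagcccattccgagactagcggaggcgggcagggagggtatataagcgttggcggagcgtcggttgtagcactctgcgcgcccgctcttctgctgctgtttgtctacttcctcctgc
TUBB3, chr16:89923092-89923391, plus strand: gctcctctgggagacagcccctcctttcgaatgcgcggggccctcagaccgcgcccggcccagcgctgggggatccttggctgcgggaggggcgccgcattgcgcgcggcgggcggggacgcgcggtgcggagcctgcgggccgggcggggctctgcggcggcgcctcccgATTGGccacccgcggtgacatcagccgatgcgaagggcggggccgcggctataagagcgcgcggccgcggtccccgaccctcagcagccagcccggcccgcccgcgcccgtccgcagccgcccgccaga
The printed window of TUBB4B held 3 matches and that of TUBB3 held 1. A match is a run of letters and not a bound site, and the missing TCF/LEF letters say nothing of sites outside these windows.

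Of 13 other tubulin genes listed in the files, 5 were at 0 in every library and 8 were above 0 in at least 1. TUBG1, the gamma tubulin that nucleates microtubules, was the most abundant, at 41 and 36 in NonS against 24 and 20 in APC shRNA. Its difference on the log2(value + 1) scale was -0.78 ± 0.13 (SE, limma), with an adjusted p of 0.0642. Its paralog TUBG2 was at 14 and 12 in NonS against 13 and 12 in APC shRNA. Of these 2 tested genes 0 passed limma's threshold, where 8.04% of all tested genes did. By unadjusted p under 0.05 (limma) 1 of them, TUBG1, was lower, a mark that 35.6% of all tested genes reached in either direction.

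The remaining 6 were too low to be tested. TUBB4A had a value of 4 in each NonS library and of 3 in each APC shRNA library, TUBB8 at 3 and 4 against 2 and 2, and TUBB1 at 1 and 1 against 1 and 0. TUBA4B, which overlaps TUBA4A on the opposite strand, had a value of 4 in each NonS and of 2 in each APC shRNA library. TUBD1 (delta tubulin) was at 3 and 2 in each group, and TUBE1 (epsilon tubulin) at 5 and 3 against 4 and 3. Of the beta genes above 0, only TUBB, TUBB2A, TUBB2B and TUBB3 had a higher mean in APC shRNA than in NonS.

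The genes that nucleate, fold, modify and bind tubulin were followed through 4 lists. The gamma-tubulin ring complex, the template from which microtubules grow, had 5 tested genes of 9, of which 0 were called higher and 1 lower, with a median difference of -0.29 on the log2(value + 1) scale beside 0.03 over all genes. The called gene was TUBGCP3, a core subunit of the ring, at 14 and 13 in NonS against 9 and 9 in APC shRNA, a difference of -0.54 ± 0.07 (SE) with a limma adjusted p of 0.0483. Both APC shRNA values lay below both NonS values in 4 of the 5 tested genes of the complex and above in 0, where the shares over all tested genes were 27.5% and 33.0%. The call of TUBGCP3 held in 9 of 14 alternative fits and in 0 of those without 1 library, and its adjusted p ranged from 0.0113 to 0.220.

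The microtubule-associated and regulatory proteins had 8 tested genes of 31, with 0 called higher, 1 called lower and a median difference of 0.02. The called gene was KIF2C, a kinesin that removes tubulin from microtubule ends, at 36 and 35 in NonS against 21 and 20 in APC shRNA. Its difference was -0.76 ± 0.06 (SE), with a limma adjusted p of 0.0423, the smallest in the whole table and shared with other genes. The call held in 11 of 15 alternative fits and in 0 of those without 1 library, with an adjusted p of 0.00385 to 0.194. By unadjusted p under 0.05, 3 genes of this list were higher and 2 lower, where 19.8% of all tested genes were higher and 15.8% lower by that mark.

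The tubulin folding list holds the chaperonin CCT and its helper prefoldin, which fold new tubulin, and the cofactors that join alpha to beta. It had 18 tested genes of the 21 found, and limma called 0 in either direction, with 5 higher and 1 lower by unadjusted p under 0.05 and a median difference of -0.03. These 6 of 18 are near the 35.6% of all tested genes with an unadjusted p under 0.05. The largest differences either way were in CCT8, a chaperonin subunit, and TBCB, an alpha tubulin cofactor. CCT8 was at 108 and 72 in NonS against 79 and 43 in APC shRNA, with groups that overlap. TBCB was at 46 and 51 in NonS against 67 and 68 in APC shRNA, 0.47 higher on the log2(value + 1) scale with a limma adjusted p of 0.0623.

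The tubulin modification list (enzymes that add or remove tyrosine, glutamate, glycine and acetyl groups) had 6 tested genes of 21, with 0 calls by limma, 3 higher and 1 lower by unadjusted p under 0.05 (35.6% of all tested genes in either direction), and a median difference of 0.12. SVBP, the partner of the vasohibins that remove the C-terminal tyrosine of alpha tubulin, was at 18 and 20 in NonS against 28 and 29 in APC shRNA, with a limma adjusted p of 0.0519. TTLL12, a member of the tubulin tyrosine ligase-like family, was at 29 and 28 in NonS against 22 and 17 in APC shRNA, with a limma adjusted p of 0.115. Over the 4 lists, 37 genes were tested and 2 called, both lower, where 8.04% of all tested genes were called in either direction.

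**Figure D4:**
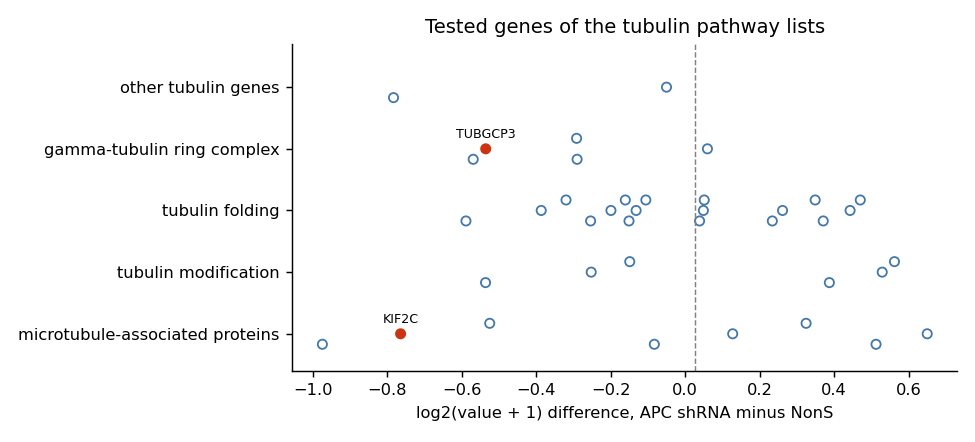
Difference on the log2(value + 1) scale (APC shRNA minus NonS) of each tested gene in the list of other tubulin genes and the 4 pathway lists, with 1 point per gene, filled red points for genes with a limma adjusted p under 0.05, and a dashed line at the median of all tested genes (0.03). TUBGCP3 (-0.54) and KIF2C (-0.76) are the called genes, and the other points spread to both sides.

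The genes most like TUBB3 and TUBA4A, with the highest and lowest log2 ratio of means as computed, were sought by Euclidean distance of centred log2(value + 1) values over the 4 libraries. The nearest to TUBB3 were ZNRF3, a membrane ubiquitin ligase of Wnt receptors, at 13, 15, 39 and 55 in NonS I, NonS II, APC shRNA I and APC shRNA II (distance 0.0704), followed by RHOB (0.0976) and QPRT (0.118). The nearest to TUBA4A were CCNB1, the mitotic cyclin B1, at 104, 98, 65 and 57 in the same order (distance 0.0149), followed by MCM2, a subunit of the replicative helicase, at 73, 70, 46 and 40 (0.0166), and GPAA1 (0.0381). A profile here has only 4 points in 2 groups, and the likeness is a description.

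Markers of other cell types were read because TUBB3 and TUBB2B mark neurons. Of 10 neuronal markers, SYP alone was above 0, at 1, 0, 1 and 1 in NonS I, NonS II, APC shRNA I and APC shRNA II, so the list summed to 0 to 1 in NonS and to 1 in APC shRNA. Of 9 mesenchymal markers ACTA2 alone was above 0, at most at 1. The 11 epithelial markers summed to 4359 to 5412 in NonS and to 4749 to 4947 in APC shRNA. Of the 8 tested epithelial markers, 5 had a positive and 3 a negative difference. Both APC shRNA values lay above both NonS values in 2 and below in 2, where 33.0% and 27.5% of all tested genes did so. Limma called 1 of the 8, lower, where 3.7% of all tested genes were called lower. This was LGALS4, a galectin of the gut epithelium, at 557 and 646 in NonS against 175 and 147 in APC shRNA. The gut transcription factors CDX1 and CDX2 were near 0, with 2 and 2 in NonS against 0 and 0 in APC shRNA for CDX1, and 0 and 0 against 2 and 4 for CDX2.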

How the data were processed

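Total RNA of the 4 libraries was sequenced as 50 bp single reads from a stranded mRNA kit. Per the study's methods, reads were quality filtered, aligned with TopHat2 to human genome assembly 38 and counted per gene with htseq-count on GENCODE v29. The submitters' processing notes name hg19, bcl2fastq 2.19.0.316 and DESeq2 1.4.1, so the build is uncertain. The values the authors deposited are treated as a score: whole numbers per gene of unstated scale, too even between replicates for read counts. A table of the authors' own fold changes and p-values was not used. Of 19729 genes, 19502 matched GENCODE v29.

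Values were tested on log2(value + 1) with limma 3.58.1 (R 4.3.3, moderated with trend, Benjamini-Hochberg, adjusted p under 0.05), for genes with a mean of at least 10 over the 4 libraries. The plan took the values as scores, to be checked again, and held a count test ready only in case they proved to be counts. The fit was tested on simulated data. Replicate numbers are not stated to mark a shared batch, so no block was used. Named genes were the 10 tubulins, other tubulins above 0, up to 4 called genes per direction of each pathway list (otherwise the 2 largest differences), the APC and Wnt check, and the 3 nearest profiles of the highest and lowest member. Members and lists were chosen with earlier results of these data known. TBCE had no match. Sequences were read with Biopython 1.88, figures drawn with matplotlib 3.10.9. The coding ends of the alpha genes are not reported here.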

Additional observations from a re-analysis of the deposited data

How the results depend on the processing

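The members other than TUBB kept their direction in every alternative run. TUBB, whose groups overlap, ranged from -0.02 to 0.14 on the log2 scale and was below 0 without APC shRNA replicate I (-0.0202) and with a GC content correction (-0.0231). TUBB3 ranged from 1.17 to 1.87, TUBB4B from -0.87 to -0.61 and TUBA1B from -0.75 to -0.57. The log2 ratio of summed alpha tubulin (-0.59) ranged from -0.66 to -0.52 when 1 library was left out. The number of called genes depended strongly on the setting. The 233 genes higher became 952 without a filter, 139 with at least 10 in every library and 439 with GC content correction. The 199 genes lower became 305 with median-of-ratios size factors, 369 with equal totals, 349 with upper quartile scaling, 515 without a filter and 475 with GC content correction. Under the study's thresholds (4-fold, adjusted p under 0.01) 0 were called in either direction by limma, whose smallest adjusted p over all genes was 0.0423. The study itself, with DESeq2 on read counts, reported genes past these thresholds in both directions. Of the pathway lists' genes, 2 were called higher with median-of-ratios size factors, 7 without a filter and 4 with GC content correction, against 0. The GC content alternatives were added after seeing the data. Except where the alternative itself tests more or fewer genes or libraries, the cause was not tested.

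With the replicate number as a block, 523 genes were called higher and 500 lower, and 1 pathway gene higher. With the block and GC content correction, 1175 were higher and 1291 lower, 10 and 13 of them among the 37 tested genes of the pathway lists, against 0 and 2. Replicate II minus replicate I correlated between groups across 5376 genes (Pearson's r 0.724), which is a hint from the data and not from the labels. The depth behind the values is unknown.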

Other observations

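Some other genes of the tubulin lists had groups that did not overlap without passing limma's threshold, and are named here after their values were seen. STMN1, which binds free tubulin dimers and so limits assembly, was at 80 and 77 in NonS against 116 and 132 in APC shRNA, with an adjusted p of 0.0545. AGBL5, a carboxypeptidase that trims glutamate chains from tubulin, was at 15 and 17 against 24 and 23, with an adjusted p of 0.0617. MAP7, which recruits kinesin-1 to microtubules, was at 25 and 22 against 16 and 16, with an adjusted p of 0.0615. Without any 1 of the 4 libraries, limma called none of these 3 genes. Among all alternative fits the adjusted p of STMN1 ranged from 0.00331 to 0.230, that of AGBL5 from 0.0183 to 0.257 and that of MAP7 from 0.0135 to 0.263. Since all had 2 libraries a group, the differences are given as values only.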
